A study of Mus musculus with 4 samples.

Results

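Ehd1, Ehd3 and Ehd4 encode 3 of the 4 EHD proteins of the mouse, and they are 3 of the 32285 genes counted in this single-cell RNA series of bone marrow stem and progenitor cells. They were chosen by symbol, because Ehd3 had among the largest ratios in both libraries that carried an active Ikk2 allele. The library ratios of Ehd3 are therefore a description of what chose it, and no test is attached to them. The fourth gene of the family, Ehd2, is given beside them where it could be measured.

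Cells of the LSK gate (lineage-negative, Sca-1-positive, Kit-positive) were sorted after enrichment on Kit beads, from bone marrow of mice aged 8 to 12 weeks. Each of 4 libraries held the pooled cells of 5 mice. The control library came from mice with Vav1-iCre/+ alone, a transgene that drives the Cre recombinase in blood-forming cells, and the other 3 libraries carried that transgene as well. The Ikk2CA library added Ikk2-CA flox/+, a constitutively active Ikk2 kinase placed in the Rosa26 locus. The Jak2V617F library added Jak2 V617F flox/+, the active kinase allele of human myeloproliferative disease, and the double mutant library added both alleles. The series' text also describes a cross to an FVB strain that carries an NF-κB-responsive EGFP reporter, which the labels of the 4 libraries do not name. With 1 pooled library per genotype, differences between animals were not measured. Genotype, library, sex of the pool and sequencing depth cannot be told apart. All intervals below are 95% intervals that cover counting error only.

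After filtering, 37344 of 41674 cell barcodes were kept, between 5268 and 14156 per library, with 102362297 to 197836491 unique molecular identifiers (UMIs) per library. The median cell held 10606 UMIs in control, 17726 in Ikk2CA, 11106.5 in Jak2V617F and 24915 in the double mutant. At most 60 kept barcodes were shared by any pair of libraries. The 4 gate genes Ly6a, Kit, Ptprc and Cd34 were present in every library, with summed levels of 601 to 810 CPM (UMIs of a gene scaled to the same total in every library). The libraries nevertheless clustered largely apart, with clusters of B cell-like, plasmacytoid dendritic-like and erythroid-like cells inside the lineage-negative gate. Xist, the RNA of the inactive X chromosome of female cells, was found in 58.5% of control cells with at least 5000 UMIs, 24.3% of Ikk2CA cells, 0.360% of Jak2V617F cells and 29.1% of double mutant cells.

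EHD proteins are ATPases that bend and cut membranes of the endosomal system, the compartments that sort receptors taken up from the cell surface. Ehd3 is known for carrying cargo from early endosomes to the recycling endosome and the Golgi, Ehd1 for returning receptors such as the transferrin receptor from the recycling endosome to the surface, and Ehd4 for early endosome sorting. Ehd2 is known for stabilising caveolae at the plasma membrane. Ikk2 phosphorylates the inhibitors of NF-κB, which releases that family of transcription factors to the nucleus. Jak2 is the kinase of several cytokine receptors of blood-forming cells, the erythropoietin receptor among them.

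Ehd3 lies on the plus strand of chromosome 17 (mm10 chr17:73804134-73832094). Its protein-coding transcript starts at position 73804841 in the GENCODE annotation, and the RefSeq start is the same. The promoter is shown because the gene was high in both libraries with the active Ikk2, the kinase upstream of NF-κB. The letters below run from 250 bases before that start to 10 bases after it (GRCm38.p6 chr17:73804591-73804850, plus strand, from RefSeq), with the promoter of Ehd4 for comparison (GRCm38.p6 chr2:120154566-120154825, minus strand). Capitals mark a match to the κB consensus, the 10-base motif bound by NF-κB. RefSeq's table held no promoter of Ehd1.

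Ehd3: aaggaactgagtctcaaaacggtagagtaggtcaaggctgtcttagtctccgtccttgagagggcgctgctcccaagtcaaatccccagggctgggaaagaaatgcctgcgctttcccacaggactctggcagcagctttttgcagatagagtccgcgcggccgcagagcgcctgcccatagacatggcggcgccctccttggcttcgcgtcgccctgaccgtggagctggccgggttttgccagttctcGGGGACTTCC
Ehd4: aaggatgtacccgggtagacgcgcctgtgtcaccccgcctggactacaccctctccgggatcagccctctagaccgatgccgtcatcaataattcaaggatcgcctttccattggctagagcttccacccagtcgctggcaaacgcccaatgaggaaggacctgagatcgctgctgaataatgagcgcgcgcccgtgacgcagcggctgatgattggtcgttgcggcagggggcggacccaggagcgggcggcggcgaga

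The searched window was 300 bases, 250 before the start and 50 after it, on both strands. In Ehd3 the κB consensus matched once, as GGGGACTTCC on the plus strand, at positions 251 to 260 of the window, the first 10 transcribed bases. No match was found in the window of Ehd4, or in that of Ehd2, which is not printed. A looser form, which keeps only the first 3 and last 2 bases of the motif, matched 3 times in Ehd3 and 6 times in Ehd4, counting both strands, and was present in 50.8% of all promoters. The consensus was present in 8.46% of the 32851 RefSeq promoters of the same length, and in 11 of the 24 NF-κB target genes on the list used below that had a promoter in the table. Of the 8 genes most like Ehd3 over cell classes, given below, 7 had a promoter in the table and 2 of these held the consensus. The STAT-type motif TTCNNNGAA (8.30% of promoters), the GATA-type motif AGATAA (11.2%) and the AP-1-type motif TGANTCA (7.81%) were in none of the windows of Ehd2, Ehd3 and Ehd4. The motifs were picked with these promoters already seen, and a match describes the letters only.

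Ehd3 was nearly absent from control and Jak2V617F cells and abundant in both libraries with the active Ikk2. It was at 2.44 CPM in control (250 UMIs, interval 2.15 to 2.76) and at 47.6 CPM in Ikk2CA (9409 UMIs, interval 46.6 to 48.5). In Jak2V617F it was at 2.89 CPM (529 UMIs, interval 2.65 to 3.15), and in the double mutant at 24.5 CPM (3485 UMIs, interval 23.7 to 25.3). The 2 libraries with the active Ikk2 thus stood far above the other 2, with the double mutant between Jak2V617F and Ikk2CA.

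The ratio of Ikk2CA over control was 19.5-fold (log2 4.28, interval 4.10 to 4.47). A ratio of at least 2-fold higher in that comparison was called for 2.14% of the 8377 genes that reached 10 CPM in at least 1 of the compared libraries, and at least 2-fold lower for 3.37%. Among those genes Ehd3 ranked 10th from the highest. The double mutant stood 10.0-fold above control (log2 3.33, interval 3.14 to 3.52), where 0.832% of 8294 genes were at least 2-fold higher and 2.44% at least 2-fold lower, and where Ehd3 ranked 8th. It stood 8.47-fold above Jak2V617F (log2 3.08, interval 2.95 to 3.22), a comparison in which 0.715% of 8247 genes were at least 2-fold higher. That is 59 genes higher beside 93 lower, and 81 and 35 relative to the median gene of the same comparison.

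Among named genes that reached 20 CPM in at least 1 of the compared libraries, the neighbours of Ehd3 in the order of Ikk2CA over control were the globin gene Hba-a1 at 26.1-fold above it and Ly6d, a lymphoid surface protein gene, at 15.9-fold below it. In the double mutant over control Ehd3 had the highest ratio of these genes, and Serpina3f, a protease inhibitor gene, followed at 7.74-fold.

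Between both libraries with the active Ikk2, the double mutant held less Ehd3 than Ikk2CA (log2 ratio -0.96, interval -1.01 to -0.90, or 0.515 of the Ikk2CA level). At least 2-fold lower was called for 2.06% of 7752 genes in that comparison and at least 2-fold higher for 0.348%, and Ehd3 stayed just short of the limit. The double mutant lay below the sum of both single effects, with a departure from additivity on the log2 scale of -1.20 (interval -1.43 to -0.98 by a normal approximation to the log counts). Jak2V617F over control was 1.19-fold (log2 0.24, interval 0.03 to 0.47), with less than 10 CPM in both libraries. In that comparison 0.297% of 8405 genes were at least 2-fold higher and 0.452% at least 2-fold lower.

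**Figure D1:**
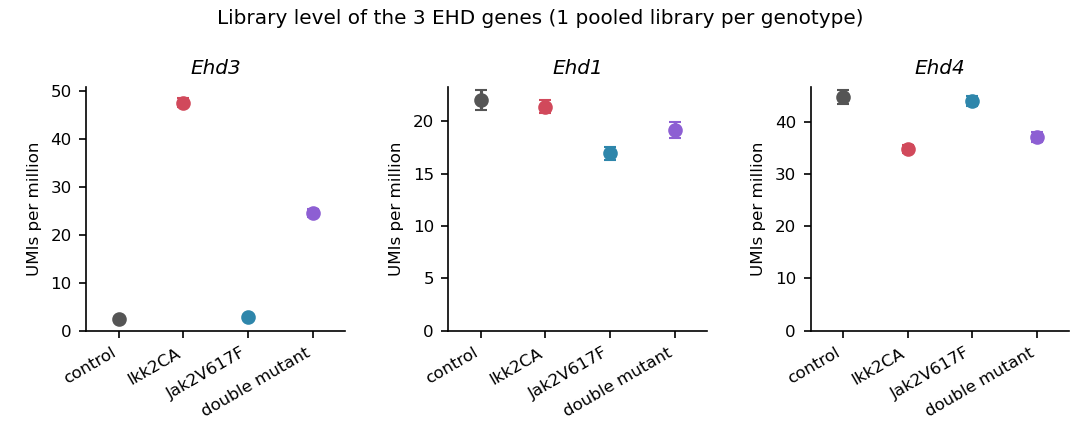
Library level of Ehd3, Ehd1 and Ehd4 in CPM (vertical axes from 0, 1 panel per gene with its own scale) in the 4 libraries. Points are library sums and bars are 95% Poisson intervals for counting error; Ehd3 is at 47.6 in Ikk2CA and 24.5 in the double mutant and under 3 in the other libraries, while Ehd1 and Ehd4 stay between 16.9 and 44.8.

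Ehd1 and Ehd4 did not share this pattern. Ehd1 (mm10 chr19:6276725-6300096, plus strand) was at 22.0 CPM in control (interval 21.1 to 22.9), 21.4 in Ikk2CA (20.7 to 22.0), 16.9 in Jak2V617F (16.3 to 17.5) and 19.2 in the double mutant (18.4 to 19.9). Its lowest level was in Jak2V617F, and the intervals of control and Ikk2CA overlapped. Its log2 ratios over control were -0.04 (interval -0.12 to 0.03) in Ikk2CA, -0.38 (-0.46 to -0.30) in Jak2V617F and -0.20 (-0.28 to -0.12) in the double mutant.

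Ehd4 (mm10 chr2:120089175-120154606, minus strand) was at 44.8 CPM in control (interval 43.5 to 46.1), 34.8 in Ikk2CA (34.0 to 35.6), 44.1 in Jak2V617F (43.1 to 45.0) and 37.2 in the double mutant (36.2 to 38.2). Both libraries with the active Ikk2 were below the other 2. Its log2 ratios over control were -0.36 (interval -0.42 to -0.31) in Ikk2CA, -0.02 (-0.08 to 0.03) in Jak2V617F and -0.27 (-0.33 to -0.21) in the double mutant.

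These small ratios have to be read against the shift of all genes. The median gene stood at a log2 ratio of -0.23 in Ikk2CA over control, -0.24 in the double mutant over control and -0.004 in Jak2V617F over control. Relative to the median gene, Ehd1 was at 0.19 in Ikk2CA, -0.37 in Jak2V617F and 0.03 in the double mutant, and Ehd4 at -0.13, -0.02 and -0.03. With edgeR's TMM scaling the log2 ratio of Ehd1 over control turned to 0.20 in Ikk2CA and 0.05 in the double mutant. That of Ehd4 in the double mutant turned to 0.05 with DESeq2's median-of-ratios scaling. Relative to the median gene Ehd3 stood at 4.51, 0.25 and 3.56. The same shift moves the counts over all genes: relative to the median gene, 244 genes were at least 2-fold higher and 127 lower in Ikk2CA, against 179 and 282 as measured, and 116 higher and 95 lower in the double mutant, against 69 and 202.

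Ehd2 (mm10 chr7:15946958-15967567, minus strand) was close to absent, at 0.498 CPM in control (51 UMIs), 1.07 in Ikk2CA (212 UMIs), 0.564 in Jak2V617F (103 UMIs) and 0.232 in the double mutant (33 UMIs). It failed the minimum of 10 CPM that the other 3 genes passed in at least 1 library.

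Reads could be shared between these related genes only in part. The protein-coding transcripts of Ehd1 and Ehd3 had 10 stretches of 31 bases in common, every other pair had 0, and none of them fell in the last 500 bases of a transcript. No annotated gene overlapped Ehd3. Its neighbour at higher coordinates, the xanthine dehydrogenase gene Xdh, lay 51801 bases away and was at 1.43 CPM in control, 1.58 in Ikk2CA, 1.98 in Jak2V617F and 1.18 in the double mutant. Galnt14, the neighbour at lower coordinates, had at most 29 UMIs in a library. Neither neighbour reached 2 CPM in any library. Beside Ehd1 the nearest genes were Gm14963 and the kinase gene Cdc42bpg, and beside Ehd4 they were Sptbn5 and Pla2g4e, all of them at 2.07 CPM or less in every library.

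The number of cells with an Ehd3 UMI followed the level. An Ehd3 UMI was found in 181 of 8055 control cells (2.25%), 4818 of 9865 Ikk2CA cells (48.8%), 409 of 14156 Jak2V617F cells (2.89%) and 1923 of 5268 double mutant cells (36.5%). Since depth per cell differed, the shares were also computed for cells thinned to 5000 UMIs each, which left out 838, 405, 1361 and 146 shallower cells in the same order. They were then 1.19% (interval 0.954 to 1.47%) in control, 19.9% (19.1 to 20.7%) in Ikk2CA, 1.32% (1.13 to 1.53%) in Jak2V617F and 10.3% (9.47 to 11.2%) in the double mutant. The intervals of both libraries with the active Ikk2 lay apart from each other and above those of the other libraries.

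For Ehd1 the thinned shares were 9.98% in control, 9.92% in Ikk2CA, 7.78% in Jak2V617F and 8.99% in the double mutant, and for Ehd4 19.5%, 15.2%, 18.8% and 16.8%. Without thinning, Ehd1 was found in 21.9%, 31.8%, 18.4% and 37.5% of cells and Ehd4 in 37.7%, 43.0%, 38.3% and 56.6%. The unthinned shares were highest in the 2 deepest libraries, against the levels in CPM, so no order was read from them.

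Cells with several Ehd3 UMIs were common only where the level was high. At least 3 Ehd3 UMIs were found in 16 control cells, 1114 Ikk2CA cells, 28 Jak2V617F cells and 350 double mutant cells. The highest number in a cell was 6 in control, 19 in Ikk2CA, 6 in Jak2V617F and 14 in the double mutant.

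**Figure D2:**
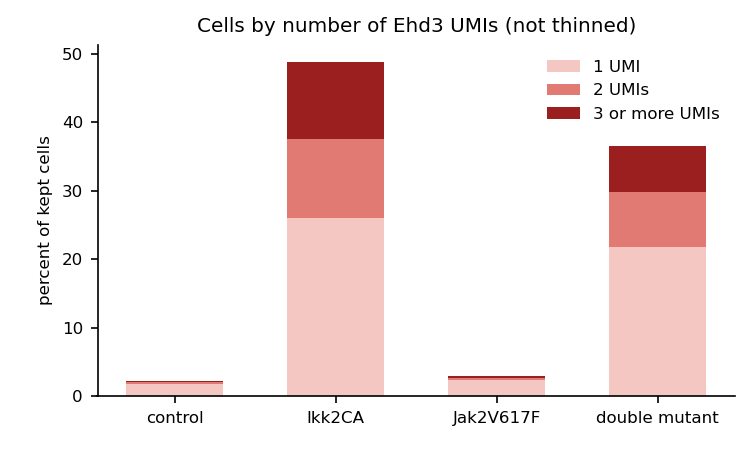
Percent of kept cells with 1, 2 and 3 or more Ehd3 UMIs in each library, as stacked bars on an axis from 0, at the depth of the libraries as sequenced. The stacks reach 2.25% in control, 48.8% in Ikk2CA, 2.89% in Jak2V617F and 36.5% in the double mutant.

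In control and Jak2V617F the level of Ehd3 was highest in megakaryocyte-like and stem cell-like clusters. The cells of all libraries were clustered together without the EHD genes among the genes used. In control, Ehd3 was at 15.5 CPM (interval 11.3 to 20.8, 146 cells) in a megakaryocyte-like cluster led by the platelet glycoprotein gene Gp1bb with Pf4 and Vwf. It was at 10.2 (6.89 to 14.6, 351 cells) in the stem cell-like cluster led by Sult1a1 with Mllt3, and at 9.53 (7.53 to 11.9, 556 cells) in a megakaryocyte-like cluster led by Fgf3 with Gp5 and Itga2b. These 3 intervals overlapped. Every other control cluster with at least 50 cells was at 3.33 or less, and megakaryocyte-like clusters held 48.8%, stem cell-like cells 12.0% and unnamed clusters 36.0% of the Ehd3 UMIs of the control library. The Fgf3-led cluster held 556 of the 705 megakaryocyte-like control cells. Its name rests on 3 markers, the fewest the naming rule allows, and Tgm2 was among the leading genes of both it and the stem cell-like cluster.

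The same 3 clusters were highest in Jak2V617F, at 16.9 (interval 14.4 to 19.6, 504 cells), 7.25 (5.53 to 9.34, 1182 cells) and 6.53 (5.54 to 7.65, 1798 cells). Within the Fgf3-led cluster Jak2V617F was below control (ratio 0.686, interval 0.519 to 0.912), and the intervals of the ratio included 1 in the Gp1bb-led cluster (1.09, 0.777 to 1.55) and in the stem cell-like cluster (0.710, 0.451 to 1.14). Over the 8 clusters with at least 50 cells of both libraries and more than 3 Ehd3 UMIs in control, Jak2V617F was lower in 6 and higher in 2. The library as a whole was higher than control. Beside that stand the shares of cells: megakaryocyte-like cells were 16.3% of Jak2V617F cells against 8.75% of control cells. Stem cell-like cells were 8.35% against 4.36%. Of the 2309 megakaryocyte-like Jak2V617F cells, 1798 were in the Fgf3-led cluster. The shares depend on the clustering. At resolution 0.5, stem cell-like cells were 4783 of 14156 Jak2V617F cells and 2534 of 8055 control cells. Megakaryocyte-like cells there were 2081 and 757. The 9 megakaryocyte markers summed to 157 CPM in Jak2V617F and 169 in control. With every class of the main clustering weighted by its share in control, the log2 ratio of Ehd3 turned to -0.21.

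In Ikk2CA, Ehd3 was at 31.7 CPM or more in 13 of the 15 clusters with at least 50 cells. Of the 4 clusters with at least 50 cells in both control and Ikk2CA, the Gp1bb-led megakaryocyte-like cluster went from 15.5 to 122 CPM (interval 116 to 129, 374 cells), a ratio of 7.89 (5.84 to 10.9). The erythroid-like cluster, led by the claudin gene Cldn13, went from 0.977 (4 UMIs in 183 cells, interval 0.266 to 2.50) to 58.2 (52.7 to 64.1, 272 cells). The granulocyte-monocyte-like cluster, led by the neutrophil elastase gene Elane, went from 0.121 (1 UMI in 300 cells, interval 0.00305 to 0.671) to 31.7 (29.5 to 34.0, 697 cells).

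In the B cell-like cluster with Pax5, a B cell transcription factor gene, 0 Ehd3 UMIs were found in 110 control cells, which allows up to 1.81 CPM at 3 UMIs. The 850 Ikk2CA cells of that cluster were at 45.4 (42.3 to 48.6), at least 25.1-fold higher than that floor, and the exact interval of the ratio begins at 20.4. The 3 clusters that held at most 4 Ehd3 UMIs in control thus stood at 31.7 to 58.2 in Ikk2CA.

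The share of cells with a UMI showed the same contrast. In control, 0.333% of the granulocyte-monocyte-like cells (median 28550 UMIs) and 16.4% of the Gp1bb-led cells (median 19275 UMIs) had an Ehd3 UMI. In Ikk2CA these shares were 58.0% (median 34481 UMIs) and 85.3% (median 24366 UMIs). Free RNA can add to such shares and was not measured. The lowest share in Ikk2CA was 4.00% of 75 cells (median 14601 UMIs). It was that of an unnamed cluster that holds the dendritic cell genes Xcr1 and Zfp366.

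Within Ikk2CA the levels ran from 122 in the Gp1bb-led megakaryocyte-like cluster and 94.5 (88.3 to 101) in the megakaryocyte-like cluster led by Treml1, through 66.3 (62.5 to 70.3) and 55.8 (51.9 to 60.0) in both plasmacytoid dendritic-like clusters, to 33.5 (31.6 to 35.5, 2451 cells) in the cluster led by Nr4a2. The 2 megakaryocyte-like clusters did not overlap with each other or with any other. The erythroid-like cluster overlapped with both plasmacytoid dendritic-like clusters. The 4 clusters between 41.1 and 45.4, B cell-like and T and NK-like ones among them, overlapped with each other, and so did the 4 between 31.7 and 35.0. Below them stood an unnamed cluster led by immunoglobulin genes at 6.00 (4.20 to 8.31, 203 cells) and the Xcr1 cluster at 2.70 (0.556 to 7.88), so 2 of the clusters of the Ikk2CA library had little of the transcript.

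**Figure D3:**
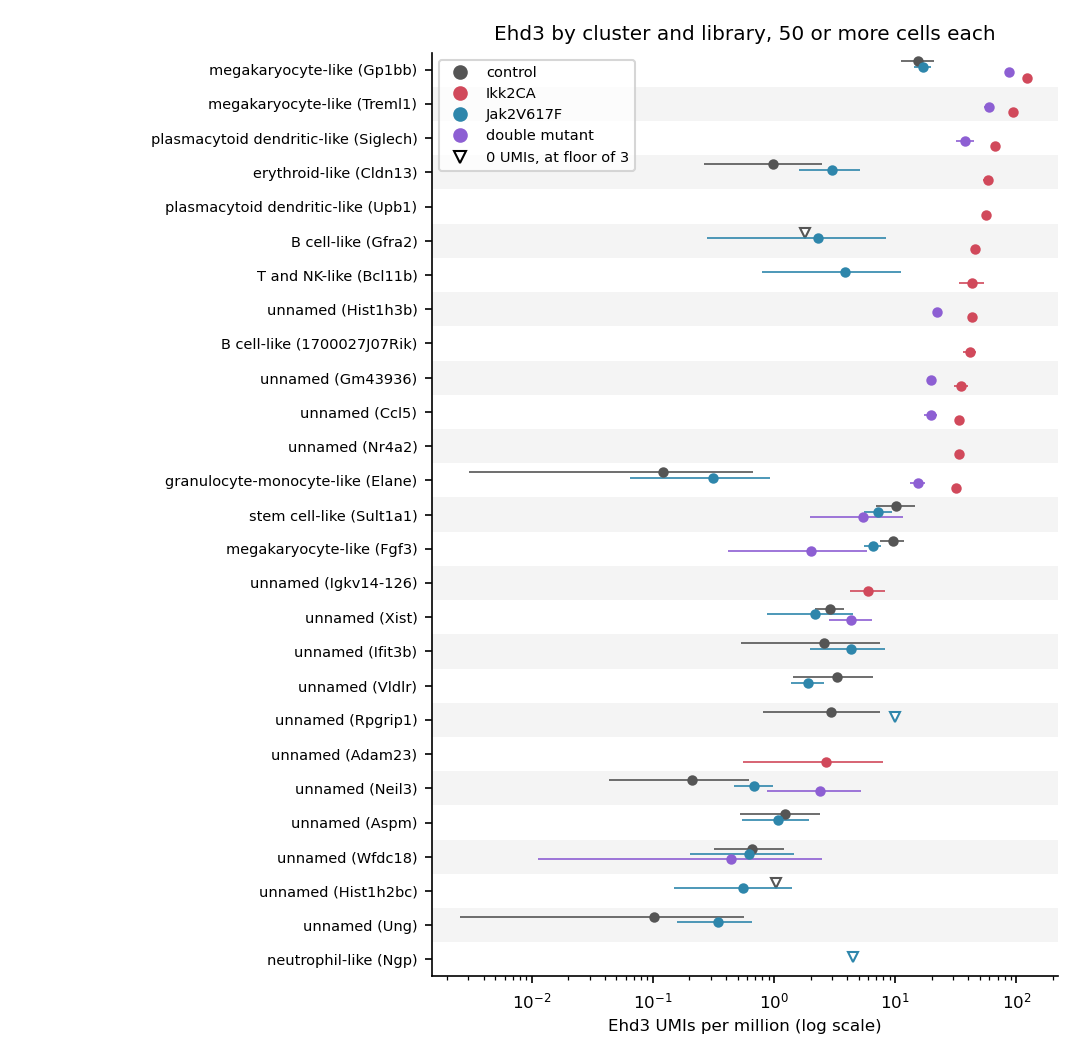
Ehd3 level in CPM (log axis) in each cluster with at least 50 cells in a library, by library; points are sums of the cells, bars 95% Poisson intervals, and open triangles mark 0 UMIs at the floor of 3 UMIs. Rows are named by class and first leading gene; in the shared Elane-led cluster Ikk2CA is at 31.7 and the double mutant at 15.3, against 0.121 in control.

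The double mutant was below Ikk2CA inside every cluster that both libraries filled. Over 7 clusters with at least 50 cells of each, the ratio was below 1 in 7, with all intervals below 1, and ran from 0.483 (interval 0.407 to 0.569) in the Elane-led granulocyte-monocyte-like cluster to 0.709 (0.642 to 0.782) in the Gp1bb-led megakaryocyte-like cluster, with a median of 0.569. The double mutant was at 15.3 (13.1 to 17.7, 225 cells) and 86.7 (80.0 to 93.8, 186 cells) in those clusters. In the plasmacytoid dendritic-like cluster led by Siglech it was at 37.8 (31.5 to 44.9) against 66.3.

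Ehd1 in the same 7 clusters was lower in 5 and higher in 2, with ratios of 0.737 to 1.15 and 1 interval below 1. Ehd4 was lower in 6 and higher in 1, with ratios of 0.840 to 1.12 and 2 intervals below 1. In the Gp1bb-led cluster the intervals of Ehd3 (0.642 to 0.782) and Ehd1 (0.605 to 0.895) overlapped.

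The double mutant library held a group of cells with little Ehd3. The clusters fell into 11 with at least 50 control and fewer than 50 Ikk2CA cells (control-type below), 11 with at least 50 Ikk2CA and fewer than 50 control cells (Ikk2CA-type) and 4 with at least 50 of both. Control-type clusters held 88.3% of control cells, 89.7% of Jak2V617F cells and 1.23% of Ikk2CA cells, but 16.9% of double mutant cells, which is 891 cells. In those 891 cells Ehd3 was at 4.12 CPM (66 UMIs, interval 3.19 to 5.25), above control at 2.39 (2.07 to 2.75) and Jak2V617F at 2.15 (1.92 to 2.39) in the same clusters, and below the rest of its own library. The control-type clusters are mixed differently in these libraries: the ratio of the double mutant over control was 0.211 (0.0426 to 0.640) in the Fgf3-led cluster, 0.526 (0.179 to 1.29) in the stem cell-like cluster and 1.5 (0.894 to 2.46) in the cluster led by Xist. It was 11.3 (2.41 to 69.7) in the cluster led by Neil3, on 6 UMIs in 83 cells against 3 UMIs in 694. The cluster led by Wfdc18 held 1 Ehd3 UMI in 120 double mutant cells and 10 in 1424 control cells. In the Ikk2CA-type clusters the double mutant was at 24.4 (23.5 to 25.4, 3870 cells) against 44.8 (43.7 to 45.9) in Ikk2CA, and in the shared clusters at 41.2 (38.4 to 44.0) against 54.1 (52.2 to 56.0).

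The 121 Ikk2CA cells in control-type clusters differed from those 891 cells. Their Ehd3 level was 51.4 (64 UMIs, interval 39.6 to 65.7), as high as in the rest of their library. Relb, the NF-κB subunit gene that NF-κB itself induces, followed the same split: it was at 30.5 (21.6 to 41.9) in these Ikk2CA cells, 10.4 in the 891 double mutant cells and 33.8 in the double mutant cells of Ikk2CA-type clusters. The NF-κB inhibitor gene Nfkbia was at 104 in the 891 cells and 277 in the Ikk2CA-type clusters of the double mutant.

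Xist moved with the split in the double mutant. Only the EHD genes had been left out of the genes used for clustering, so Xist, Relb and Nfkbia could themselves shape the split. A control-type cluster led by Xist held 355 of the 891 double mutant cells. Of the cells with at least 5000 UMIs, 90.9% in control-type and 16.8% in Ikk2CA-type clusters had a Xist UMI. Seen the other way, 749 of the 1492 double mutant cells with a Xist UMI lay in control-type clusters, against 75 of the 3630 without one. Ehd3 was at 2.89 (interval 2.08 to 3.91) in the 749 and at 13.8 (8.15 to 21.7) in the 75. Control cells with a Xist UMI in the same clusters were at 2.56 (2.13 to 3.05), which overlaps with the 749. Over the whole double mutant library it was at 28.6 (27.5 to 29.6) in cells without and 14.0 (12.9 to 15.2) in cells with a Xist UMI. In Ikk2CA the same levels were 48.3 (47.2 to 49.5) and 45.2 (43.4 to 47.1), and in control 2.28 (1.83 to 2.81) and 2.46 (2.08 to 2.88).

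Ehd1 and Ehd4 varied less with this split. In the double mutant Ehd1 was at 18.5 in cells without and 20.8 in cells with a Xist UMI, and Ehd4 at 36.2 and 39.6. Without the 891 cells the log2 ratio of Ehd3 in the double mutant over Ikk2CA was -0.81 in place of -0.96. The labels give no sex for the mice, and the files do not record which cells had recombined the floxed alleles. Whether the 891 cells carried the active alleles was not tested, and neither was the part of the pool's make-up in the library level of the double mutant, in its ratio to Ikk2CA and in the departure from additivity.

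**Figure D4:**
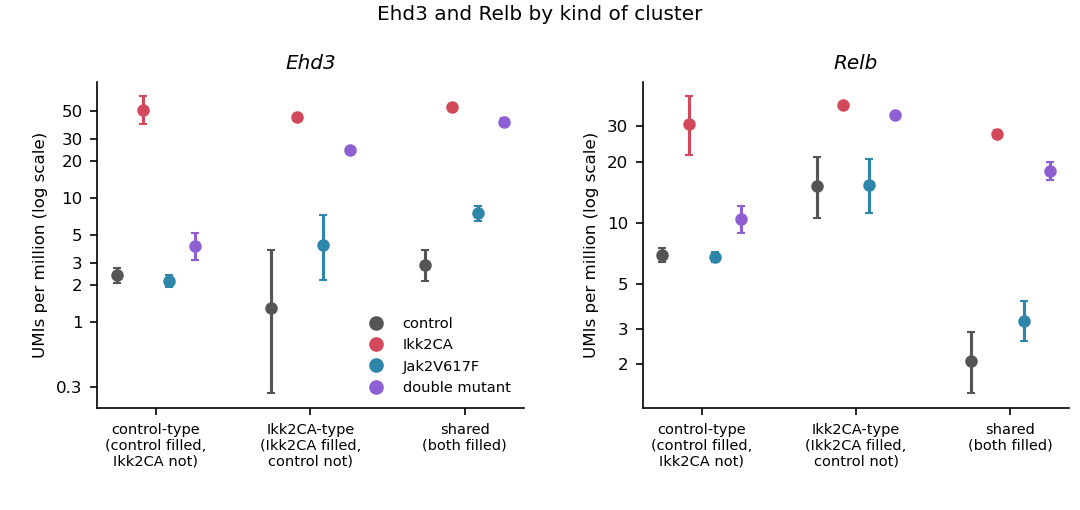
Levels of Ehd3 (left) and Relb (right) in CPM (log axes) in control-type, Ikk2CA-type and shared clusters, by library; points are sums of the cells and bars 95% Poisson intervals. In control-type clusters the double mutant is at 4.12 for Ehd3 and control at 2.39, and the 121 Ikk2CA cells there are at 51.4.

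Ehd1 and Ehd4 each had their own pattern over cell types. Ehd1 was highest in the 66 neutrophil-like cells of Jak2V617F at 72.9 CPM (interval 53.9 to 96.3) and in the erythroid-like cluster, at 59.9 (52.6 to 67.8) in control, 46.6 (41.7 to 51.9) in Ikk2CA and 43.6 (37.6 to 50.3) in Jak2V617F. All other clusters were at 30.8 or less. Within clusters Ehd1 was lower in Jak2V617F than in control in 14 of 15, with 7 intervals below 1 and none above, and a median ratio of 0.776. The lower library level of Ehd1 in Jak2V617F was thus present in most clusters, many of them unnamed, and clear of counting error in 7 of 15.

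Ehd4 was highest in the cluster led by the interferon-induced genes Ifit3b and Ifit3, at 92.3 (interval 75.7 to 111, 120 cells) in control and 94.6 (81.9 to 109, 237 cells) in Jak2V617F. All other clusters were at 51.1 or less. It was lowest in B cell-like cells, at 14.4 (9.25 to 21.5) in control and 18.2 (16.3 to 20.4) in Ikk2CA in the Pax5 cluster, and in the neutrophil-like cells of Jak2V617F at 13.4 (6.12 to 25.4). Within the 4 clusters shared by control and Ikk2CA it was lower in 2, with the lowest ratio of 0.624 (interval 0.504 to 0.774) in the Gp1bb-led cluster, and higher in 2, with the Elane-led cluster at 1.08 (0.960 to 1.23). Ehd2 was found mostly in B cell-like cells, at 9.75 (5.96 to 15.1) in control and 7.68 (6.60 to 8.89) in Ikk2CA, where they held 84.9% of its UMIs.

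Over 27 sums of a class in a library, each with at least 50 cells, the levels of the members did not run together. Pearson's r of log2(CPM + 1) was -0.25 between Ehd3 and Ehd1, -0.003 between Ehd3 and Ehd4, and -0.52 between Ehd1 and Ehd4. These points share libraries and depth, so the coefficients are descriptions. Within single cells the members were found together about as often as their depth alone gave. Among Ikk2CA cells 1708 had both Ehd1 and Ehd3, against 1709 computed within 10 strata of depth, and 2267 had both Ehd3 and Ehd4, against 2315. Over all 3 pairs in all 4 libraries the observed number was 0.966 to 1.20 times the computed one.

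The genes with the pattern most like Ehd3 over those 27 sums, among 4497 candidates with at least 50 CPM in 1 of them, were led by Relb (r 0.82). Fam98b (0.82), the cytochrome oxidase assembly genes Pet100 (0.81) and Cox20 (0.80), the mannosyltransferase subunit gene Dpm3 (0.78), the ATP synthase subunit gene Atp5e (0.77), Nfkbia (0.76) and the class I antigen gene H2-D1 (0.76) followed. Relb was at 6.31 CPM in control, 34.9 in Ikk2CA, 6.46 in Jak2V617F and 28.9 in the double mutant, so its library levels had the same order as those of Ehd3, with a smaller gap between both libraries with the active Ikk2. Of the 8 genes, 5 were again among the 8 most like Ehd3 over 59 sums of a cluster in a library. For Ehd1 the 4 most alike were Larp1b (0.87), the syntaxin gene Stx2 (0.84), Fam241a (0.83) and Pgp (0.83). For Ehd4 they were Mcfd2 (0.91), Npl (0.91), the kinase gene Matk (0.88) and the interleukin-11 receptor gene Il11ra1 (0.88). These lists were less stable: over the 59 cluster sums none of the Ehd1 genes was again among the 4 most alike (r 0.52 to 0.63). Of the Ehd4 genes only Mcfd2 was.

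Cells with an Ehd3 UMI were compared with the other cells of their own library, the latter reweighted to the same mix of classes and depths. In Ikk2CA the carriers were deeper, with a median of 20896.5 UMIs against 14793. After reweighting, 3 of 2451 genes with at least 50 CPM were 1.5-fold or more higher in carriers and 21 were 1.5-fold or more lower. The highest was the platelet factor gene Pf4, at 642 CPM in carriers and 307 in other cells (ratio 2.09), and in the double mutant at 854 and 392 (ratio 2.18). The 9 megakaryocyte markers, Pf4 among them, summed to 2.0 times the level of other cells in Ikk2CA and 2.12 times in the double mutant, and to 1.69 and 1.63 times with reweighting by cluster in place of class. The median log2 ratio of the markers measured was 0.53 in Ikk2CA (5 measured) and 0.86 in the double mutant (6 measured), and 0.42 and 0.40 by cluster. The link to these markers was not limited to the libraries with the active Ikk2. In control (181 carriers) and Jak2V617F (409 carriers) the markers summed to 10.5 and 6.21 times the level of other cells. With reweighting by cluster these sums were 9.57 and 5.18 times that level. Next after Pf4 in Ikk2CA was the lymphoid polymerase gene Dntt (1.5, double mutant 1.1). Mitotic genes followed: Cenpf (1.47, 1.21), Ube2c (1.42, 1.27), Hmmr (1.41, 1.16), Cdc20 (1.39, 1.24) and Ccnb1 (1.37, 1.35). Also high were the GTPase gene Gimap7 (1.40, 1.21), the interleukin-12 subunit gene Il12a (1.35, 1.04) and Myl10 (1.38, 0.452). The unnamed class pools 15 clusters, some led by mitotic genes, so reweighting by class did not match cells by cell cycle stage. With reweighting by cluster the mitotic genes were at 1.18 to 1.28 in Ikk2CA and 1.08 to 1.21 in the double mutant. Myl10 was then at 1.36 and 0.789.

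The lowest ratios in Ikk2CA carriers were those of the eosinophil granule gene Prg2 (0.0593) and the globin genes Hba-a1 (0.0829), Hbb-bs (0.0964), Hba-a2 (0.0982) and Hbb-bt (0.118). Between 49.1% and 67.2% of the UMIs of these 5 genes in Ikk2CA came from 10 cells each, of which 0 or 1 had an Ehd3 UMI. In the double mutant the ratios were 0.201 for Prg2 and 0.864 to 1.26 for the globin genes. Prg2 had only 180 UMIs there, 86.1% of them in 10 cells of which 5 had an Ehd3 UMI. With reweighting by cluster its ratio was 0.973 in the double mutant and 0.0802 in Ikk2CA. The 33 NF-κB target genes summed to 1.06 times the level of other cells in Ikk2CA and 1.07 times in the double mutant. Ehd1 was at 1.09 and 1.02 times and Ehd4 at 0.983 and 0.947 times the level of other cells.

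Genes of endosomal traffic past 2-fold were counted beside the shares of all genes, 2.14% higher and 3.37% lower in Ikk2CA over control. In the double mutant over control those shares were 0.832% and 2.44%. With lists this short, the counts are not read as a result about these genes. The median log2 ratio of each list is given for Ikk2CA over control beside the median of all genes, -0.23. Of 12 EHD binding partners 6 were measured, meaning at least 10 CPM in a library, and 0 of them passed 2-fold in Ikk2CA or in the double mutant over control (median -0.41). The largest ratios were those of the endocytic adaptor Eps15 (27.7 CPM in control, 18.1 in Ikk2CA), Ehbp1l1 (21.4, 14.9), the Rab effector Rbsn (10.9, 7.93) and the membrane-bending Pacsin2 (25.8, 20.1).

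Of 18 early endosome genes 14 were measured, and 0 were at least 2-fold higher and 1 lower in Ikk2CA (median -0.28). The 1 was Appl2, a Rab5 effector, at 13.3 CPM in control and 6.28 in Ikk2CA. Rab5b, a GTPase of early endosomes, was at 29.2 and 16.5, the ESCRT-0 gene Stam at 18.4 and 11.5, and the Rab5 exchange factor Rin3 at 51.8 and 36.9. Of 22 recycling endosome genes 18 were measured and 0 passed 2-fold (median -0.26), with the rapid recycling GTPase Rab4a at 16.7 and 8.66, the sorting nexin Snx4 at 46.2 and 32.2, Rab14 at 160.3 and 121, and the tethering subunit Vps53 at 32.2 and 24.3.

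All 19 genes of retromer and sorting nexins were measured and 0 passed 2-fold (median -0.17), with the largest ratios in Snx27 (25.7 and 16.7), the WASH subunit Washc4 (24.8 and 17.6), Vps35l (24.1 and 17.3) and Vps26b (14.1 and 10.4). Of 19 clathrin uptake genes 18 were measured, and 0 were at least 2-fold higher and 1 lower (median -0.12). The 1 was the scaffold gene Itsn1, at 16.1 CPM in control, 5.61 in Ikk2CA, 16.7 in Jak2V617F and 4.54 in the double mutant. It was also the only member of this list past 2-fold in the double mutant over control, beside 0.832% of all genes higher and 2.44% lower. Beside it Fcho2 was at 39.9 and 24.3, Itsn2 at 49.2 and 34.4, and Fcho1 at 49.3 and 39.3 in control and Ikk2CA.

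Among receptors that recycle through these compartments 11 of 12 were measured. In Ikk2CA over control 1 of them was at least 2-fold higher and 2 were lower (median -0.70). Over all genes the shares were 2.14% and 3.37%. The macrophage growth factor receptor gene Csf1r was at 5.91 CPM in control and 17.7 in Ikk2CA. The chemokine receptor gene Cxcr4 was at 60.2 and 29.5. The transferrin receptor gene Tfrc, the textbook recycling cargo, was at 22.6 and 42.4, short of 2-fold. In Jak2V617F over control 0 genes of any of these 6 lists passed 2-fold in either direction. Over all genes the shares there were only 0.297% higher and 0.452% lower. Relative to the median gene, the medians of these lists in Ikk2CA over control ran from -0.47 for the receptors and -0.18 for the EHD binding partners to 0.11 for clathrin uptake on the log2 scale. The clathrin and retromer lists turned to medians of 0.13 and 0.08 with TMM scaling.

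Of 33 NF-κB target genes 26 were measured, and 11 were at least 2-fold higher and 0 lower in Ikk2CA (median log2 ratio 0.76), beside 2.14% and 3.37% of all genes. In the double mutant over control 5 were higher and 2 lower (median 0.11), beside 0.832% and 2.44% of all genes. That median turned to -0.15 over the genes that reached 50 CPM. In the double mutant over Ikk2CA 0 were higher and 7 lower (median -0.37), beside 0.348% and 2.06% of all genes. The chemokine gene Ccl5 was at 8.98 CPM in control, 75.5 in Ikk2CA, 15.1 in Jak2V617F and 42.8 in the double mutant. Relb was 5.52-fold higher in Ikk2CA and 4.59-fold in the double mutant, and Nfkbia 4.65-fold and 3.60-fold. The deubiquitinase gene Tnfaip3 was at 4.16 in control, 19.5 in Ikk2CA, 4.99 in Jak2V617F and 7.07 in the double mutant. The ratio of the double mutant over Ikk2CA was 0.830 for Relb, 0.774 for Nfkbia, 0.567 for Ccl5 and 0.362 for Tnfaip3, and that of Ehd3, 0.515, lay between the last 2.

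**Figure D5:**
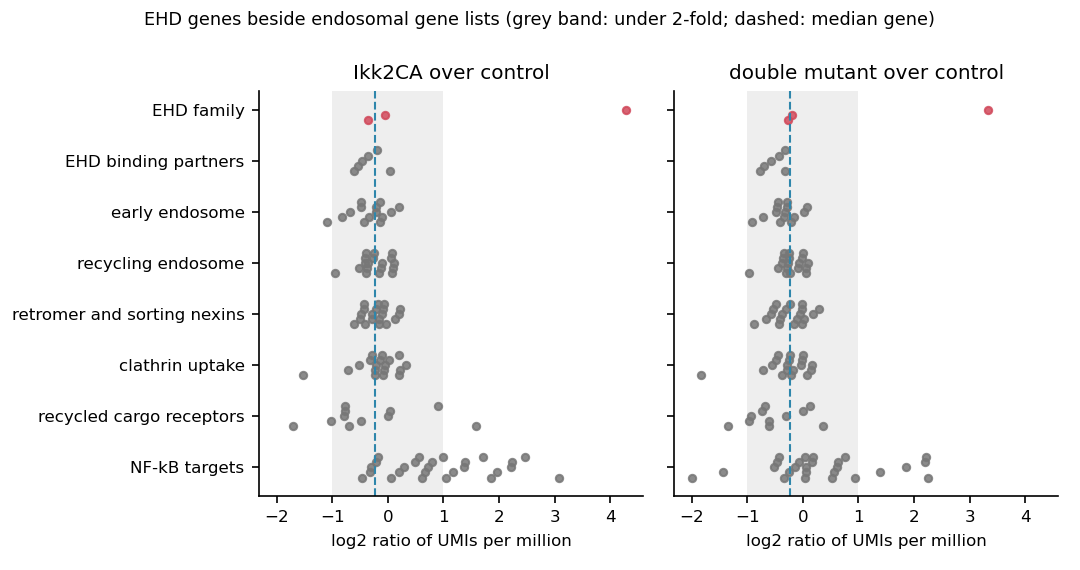
Log2 ratio of each measured gene (at least 10 CPM in a library) for Ikk2CA over control (left) and the double mutant over control (right), by list; each point is 1 gene, the EHD genes are red, the grey band marks ratios under 2-fold and the dashed line the median of all genes. Ehd3 lies at 4.28 and 3.33, Ehd1 and Ehd4 lie inside the band with nearly all endosomal genes.

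Markers of other cell types moved with the libraries as well. The 9 megakaryocyte markers summed to 169 CPM in control, 505 in Ikk2CA, 157 in Jak2V617F and 580 in the double mutant, with 1 marker at 0 in each of the last 2. Most of the sums in Ikk2CA and the double mutant came from Pf4 alone. It held 87909 of the 197836491 UMIs of Ikk2CA and 72402 of the 142211877 of the double mutant. The part of these markers in the library level of Ehd3 was not tested. Endothelial cells of the kidney glomerulus are known to express Ehd3. The 6 endothelial markers summed to 3.03 CPM in control, 2.08 in Ikk2CA, 2.68 in Jak2V617F and 1.66 in the double mutant, and the 8 stromal markers to at most 2.52.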

How the data were processed

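The files hold raw UMI counts per gene and cell barcode, deposited by the authors as filtered matrices for 4 libraries. They were made with Cell Ranger 4.0.0 per the file headers (the series' text names 3.0.1) on mm10, per the submitters' processing notes. Whether doublets were removed before deposit is not given in the sources used here. Cells with 500 to 7500 genes and under 10% mitochondrial UMIs were kept, and counts were summed per library, class or cluster and scaled to the library total (CPM).

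Intervals are exact Poisson for levels, exact conditional binomial for ratios and Clopper-Pearson for shares, at 95%. PCR and pooling add error that they do not cover. A ratio was called at 2-fold for genes that reached 10 CPM in at least 1 of the compared libraries, the floor was 3 UMIs, and no p-value was computed because each genotype had 1 library. Cells were clustered with scanpy 1.11.5 and leidenalg 0.10.2 (2000 variable genes without EHD genes, 30 components, 15 neighbours, resolution 1). Clusters were named when at least 3 fixed markers were among 25 leading genes, and those led by Xist stayed unnamed; names rebuilt this way may differ from the study's. Scrublet called 233 cells as doublets, under 0.5% in 3 of 4 libraries, where it had not worked, so none were removed. Carriers of Ehd3 were compared with other cells reweighted within class and 10 strata of depth. edgeR 4.0.16 and DESeq2 1.42.0 gave alternative scaling factors only. The ratio and reweighting scripts were tested on simulated data.

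Genes were named by rule: the members, the 4 largest ratios per list, the 8 genes most like Ehd3 (4 for Ehd1 and Ehd4), and the 10 highest and 5 lowest in carriers, leaving out mitochondrial, ribosomal, unnamed, receptor and sex-linked genes. Hba-a1, Ly6d, Serpina3f and the genes that describe clusters were named after their values were seen. The members, gene lists and rules were chosen with earlier results of these data known. A few genes that the rules would name are not reported here.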

Additional observations from a re-analysis of the deposited data

Results flagged for a closer look

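The library level of Ehd2 went in opposite directions with the active Ikk2 allele, depending on the Jak2 allele. Its log2 ratio was 1.1 in Ikk2CA over control and -1.28 in the double mutant over Jak2V617F, a difference of -2.38 (interval -3.10 to -1.67, counting error only) that was not tested over replicate libraries. The ratios rest on 33 to 212 UMIs per library. B cell-like cells, in which Ehd2 was at 4.51 to 9.75 CPM, were 1.89% of control, 14.5% of Ikk2CA, 0.671% of Jak2V617F and 0.968% of double mutant cells. Their part in the opposite ratios was not tested.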

How the results depend on the processing

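No paired analysis was possible because each genotype had 1 library. No ratio of Ehd3 changed its direction past the 2-fold limit under any alternative tried. Its log2 ratio of Ikk2CA over control was 4.53 with TMM and 4.56 with median-of-ratios scaling. That of the double mutant over control was 3.58 with TMM, 3.65 with median-of-ratios, 3.09 as a mean over cells, 3.65 in cells without and 2.51 in cells with a Xist UMI. That of the double mutant over Ikk2CA was -0.76 in cells without and -1.69 in cells with a Xist UMI, -0.90 without lineage clusters, -1.03 as a mean over cells, -1.04 class-standardised and -0.81 without the double mutant cells of control-type clusters. That of Jak2V617F over control was -0.21 class-standardised and 0.78 in cells with a Xist UMI, where 46 Jak2V617F cells held 1 UMI. The splits by a Xist UMI, the leaving out of control-type cells, the sums by cluster and the reweighting by cluster were chosen after seeing the data. Counts of genes past 2-fold depended on the minimum and the scaling. In Ikk2CA over control 179 were higher and 282 lower, against 77 and 52 at a minimum of 50 CPM, 1131 and 2026 with none, and 248 and 123 with TMM. In the double mutant over control 69 and 202 became 24 and 26, 407 and 2188, and 122 and 91. In Jak2V617F over control 25 and 38 became 9 and 10 at 50 CPM and 640 and 784 with no minimum, in the double mutant over Ikk2CA 27 and 160 became 5 and 59, and 576 and 1606, and in the double mutant over Jak2V617F 59 and 93 became 22 and 15, 443 and 1869, and with TMM 86 and 30. The cause of these differences was not tested.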
